A study of Mus musculus with 12 samples.

Results

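Cytosolic ribosomal protein genes were followed across the 4 groups of antibody and time point of a RiboTag experiment on the muscle layer of the mouse small intestine. The genes were taken by name: rows that begin with Rpl or Rps followed by a number, or Rplp followed by 0, 1 or 2, without the kinases named Rps6k, the Rps19 binding protein and the rows named as pseudogenes. The rule found 79 genes of 12975 in the count table, of which 31 code for or are named after proteins of the small subunit, 45 of the large subunit and 3 of the stalk (Rplp0, Rplp1 and Rplp2). Rpl22, the gene that carries the tag, is among them.

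RNA was measured in 12 libraries from 6 PLPCreERT2 Rpl22HA mice. In these mice a tamoxifen-inducible Cre directed to glial cells switches Rpl22 to a form with an HA tag, so that the ribosomes of the recombined cells and the mRNA on them can be pulled down with an HA antibody. All mice received 2 intraperitoneal injections of 100 µl tamoxifen at 15 mg/ml when 10 to 12 weeks old and were killed 3 to 4 weeks after the first, so tamoxifen and both alleles were shared by every group. The 3 mice of T0 were naive and the 3 mice of T3 were taken 3 h after intestinal manipulation, an operation in which the exposed small bowel is rolled to inflame its muscle layer. Cleared homogenate of each mouse was split between an HA antibody (HA T0, HA T3) and an isotype control antibody (IgG T0, IgG T3), which gave 4 groups of 3 libraries. The labels number the naive mice 1, 2 and 4 and the operated mice 1, 3 and 4, and values of single libraries are given in this order. Sham-operated mice and total input RNA were not analysed here, so anaesthesia, surgery and manipulation cannot be told apart at T3.

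The cytosolic ribosome is built from a small subunit, which reads the mRNA, and a large subunit, which joins the amino acids, each made of ribosomal RNA and a fixed set of proteins. Most mRNAs of these proteins start with a cytosine followed by a run of pyrimidines, the 5′ terminal oligopyrimidine (TOP) motif, through which mTOR signalling and the RNA-binding protein Larp1 set how many of them are on ribosomes. In a RiboTag experiment the counts of these genes therefore depend on transcript amount and on how much of the transcript is on tagged ribosomes, and these cannot be told apart in pull-down libraries without input RNA. The same holds for fewer cells of a type and less RNA per cell.

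Values are counts of unique molecular identifiers (UMIs), 1 for each captured mRNA molecule near its 3′ end, and are given as CPM, the counts scaled to the library total and not divided by gene length. Library totals ran from 1221788 to 2870591 counts in the 6 HA libraries and from 88136 to 1289833 in the 6 IgG libraries. The 2 shallowest, IgG T3 replicates 1 and 3, stood apart from IgG T3 replicate 4 (248522 counts): the summed level of 15 glial markers was 2542 and 2239 CPM in them against 905 CPM, and of 6 markers of interstitial cells of Cajal 1055 and 924 CPM against 241 CPM. Medians that use IgG T3, and the named genes called there, are therefore also given without these libraries. This leaves 1 library in the IgG T3 group, which is then assumed to vary like the libraries of the group it is compared with. As a check of the labelled cell type, 13 of 14 tested glial markers were higher in HA T0 than in IgG T0, led by Gpr37l1, S100b and Sox10, while 14 of 14 smooth muscle markers were lower. Markers of interstitial cells of Cajal were also enriched, with 3 of 4 tested higher (Kit, Prkcq and Ano1) and sums of 3013 to 4069 CPM in HA T0 against 286 to 365 CPM in IgG T0. Smooth muscle markers still summed to between 24085 and 36051 CPM in HA T0, against 75268 to 91441 CPM in IgG T0.

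Ribosomal protein genes took a larger part of the counts in the control pull-down of naive tissue than in the HA pull-down. They held 8.61%, 8.50% and 7.17% of all counts in HA T0 replicates 1, 2 and 4, and 11.4%, 10.6% and 15.0% in IgG T0 replicates 1, 2 and 4. Every IgG T0 library was above every HA T0 library, with group means of 12.3% ± 2.32 (SD, n = 3) and 8.09% ± 0.804 (SD, n = 3). At 3 h the share was 7.54%, 7.58% and 7.88% in HA T3 replicates 1, 3 and 4, the narrowest group, and 7.02%, 7.43% and 11.1% in IgG T3 replicates 1, 3 and 4. In the IgG T3 group the 2 shallow libraries were at or below the HA libraries and replicate 4 was at the level of IgG T0. The ratio of small to large subunit counts stayed between 0.732 and 0.828 in all 12 libraries, so both subunits moved together. Proteins of the mitochondrial ribosome, which is built from a separate gene set, gave another order, with a mean of 0.680% in HA T0, 0.654% in IgG T0, 0.475% in HA T3 and 0.465% in IgG T3 over 73 genes.

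**Figure D1:**
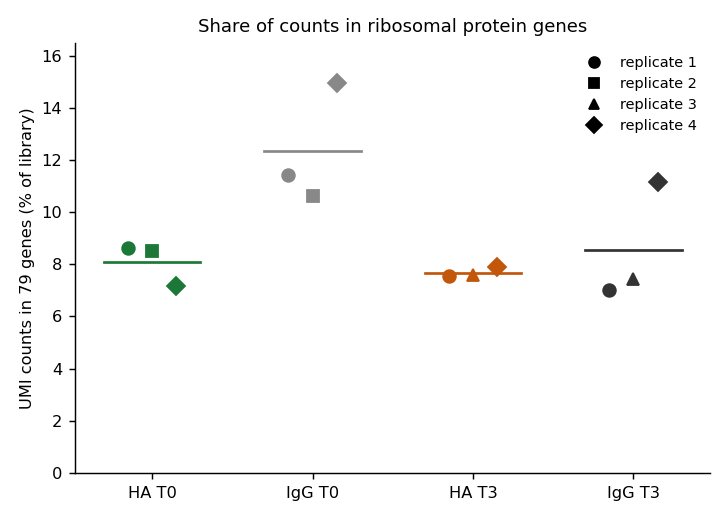
Share of UMI counts in the 79 cytosolic ribosomal protein genes (vertical axis, % of the library total) in each of the 12 libraries, by group. Symbols mark the replicate number and lines the group means; the 3 IgG T0 libraries lie above the 3 HA T0 libraries, and IgG T3 replicate 4 at 11.1% lies apart from the other IgG T3 libraries.

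The tagged gene was the only ribosomal protein gene that rose in the HA pull-down of naive tissue. Rpl22 (chromosome 4, 152325742 to 152334071, plus strand, GRCm38) was at 77.9, 78.2 and 93.7 CPM in HA T0 and at 25.8, 15.4 and 30.2 CPM in IgG T0. At T3 it was at 72.0, 62.2 and 61.5 CPM in HA and at 34.0, 10.9 and 28.2 CPM in IgG. The IgG T3 values rest on only 3, 1 and 7 UMIs, and those of HA T3 on 88, 93 and 79. The HA and IgG libraries did not overlap at either time, and the difference was a log2 fold change of 1.73 ± 0.279 (SE) at T0 (adjusted p = 0.000403, edgeR quasi-likelihood test) and 1.42 ± 0.452 at T3 (adjusted p = 0.0294). At T0 it passed the threshold of 0.05 in all 14 alternative settings. At T3 it failed the threshold in 6 of 15, namely without HA T3 replicate 1, 3 or 4 (adjusted p 0.0751, 0.0609 and 0.0682), without IgG T3 replicate 3 or 4 (0.0515 and 0.0763) and without both shallow IgG T3 libraries (0.0639). Between the HA libraries of T3 and T0 its log2 fold change was -0.09 ± 0.186 (adjusted p = 0.741). Counts from the tagged and the untagged allele were not separated here.

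Its paralog was lower in HA T0 but short of the threshold. Rpl22l1, the Rpl22-like 1 protein that can take the place of Rpl22 in the large subunit, was at 95.2, 29.1 and 15.7 CPM in HA T0 and at 278, 178 and 241 CPM in IgG T0. All HA T0 libraries were below all IgG T0 libraries, but the HA libraries were widely spread and the log2 fold change was -2.31 ± 0.770 with an adjusted p of 0.0867. Rpl22l1 passed in 5 of 14 alternatives. With the mouse as a replicate block, which pairs the HA and IgG libraries of 1 homogenate, its log2 fold change was -2.67 (adjusted p = 0.0328). It also passed in the fit of all 12 libraries, with DESeq2 and without HA T0 replicate 1 or 4. At T3 it was at 93.3, 62.9 and 77.9 CPM in HA and at 170, 43.5 and 205 CPM in IgG, where the groups overlapped (log2 fold change -0.89 ± 0.371, adjusted p = 0.0944). Without IgG T3 replicate 3 it passed (-1.15, adjusted p = 0.00714), as it did without both shallow libraries (-1.27, adjusted p = 0.00477), and without IgG T3 replicate 4 it was at -0.18 (adjusted p = 0.86).

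Many other ribosomal protein genes were lower in the HA pull-down of naive tissue. Of the 77 genes with enough counts to be tested, 36 fell and 1, Rpl22, rose at an adjusted p under 0.05, while 14.4% of all 9823 genes tested fell and 16% rose. Thus 46.8% of the tested ribosomal protein genes were lower. Their median log2 fold change was -0.62, with 69 of 77 below 0, against a median of -0.02 over all genes tested. By CPM, 50 genes had all HA T0 libraries below all IgG T0 libraries and 2 had all above, and such a pattern was found in 20.1% and 24.7% of all genes tested. Both subunits took part, with 15 of 30 small subunit genes, 19 of 44 large subunit genes and 2 of 3 stalk genes lower. The count was 23 without HA T0 replicate 2, 24 without HA T0 replicate 4 and 21 without IgG T0 replicate 4. Markers of other cells moved with this difference: besides smooth muscle, 10 of 15 neuronal, 7 of 9 fibroblast and 7 of 8 mesothelial markers were lower, and glial and interstitial cell markers were higher, as given above. Their part in it was not tested.

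Rps24, a small subunit protein whose pre-mRNA is spliced differently between tissues, had the smallest p-value of the genes that fell. It was at 644, 853 and 608 CPM in HA T0 and at 2602, 2155 and 2603 CPM in IgG T0. The groups were far apart (log2 fold change -1.83 ± 0.210, adjusted p = 2.2e-05), and the call was kept in all 14 alternatives. Rps27a, made as a fusion of ubiquitin with a small subunit protein, was at 635, 478 and 404 CPM in HA T0 against 1386, 1414 and 1125 CPM in IgG T0 (log2 fold change -1.39 ± 0.221, adjusted p = 0.00036). Rps4x, an X-linked small subunit protein, was at 385, 305 and 337 CPM against 817, 617 and 921 CPM (log2 fold change -1.23 ± 0.207, adjusted p = 0.000582). In both genes every HA T0 library was below every IgG T0 library.

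In the large subunit Rpl17 (log2 fold change -1.26 ± 0.219, adjusted p = 0.000728) and Rpl13 (-1.19 ± 0.222, adjusted p = 0.00113) fell in the same way and without overlap. The lowest fold change belonged to Rpl39, a very small protein at the exit tunnel of the large subunit (X chromosome, 37082520 to 37085402, minus strand, GRCm38). It was at 98.7, 56.4 and 23.7 CPM in HA T0 and at 489, 312 and 503 CPM in IgG T0. The HA libraries were widely spread and all lay below the IgG libraries (log2 fold change -2.88 ± 0.573, adjusted p = 0.0137). The call was lost without HA T0 replicate 2 (adjusted p = 0.0695) and without IgG T0 replicate 4 (adjusted p = 0.0545).

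Among the stalk proteins, which recruit the elongation factors, Rplp0 (log2 fold change -0.60 ± 0.199, adjusted p = 0.0329) and Rplp2 (-0.72 ± 0.246, adjusted p = 0.0377) fell, though they were called in only 6 and 8 of 14 alternatives. Rplp1 did not pass at -0.55 ± 0.213 (adjusted p = 0.0644). Rpl5 and Rpl11, which join the 5S RNA and bind the p53 regulator Mdm2 outside the ribosome, differed from each other. Rpl5 was at 21.9, 22.9 and 29.6 CPM in HA T0 and at 54.1, 36.0 and 38.8 CPM in IgG T0 (log2 fold change -0.78 ± 0.279, adjusted p = 0.0465), a call held in only 3 of 14 alternatives and lost when any 1 library was left out (adjusted p 0.0521 to 0.134). Rpl11 was at 1127, 1068 and 1030 CPM in HA T0 and at 951, 958 and 972 CPM in IgG T0, a difference short of the threshold (log2 fold change 0.14 ± 0.178, adjusted p = 0.592). Rps6, the small subunit protein phosphorylated by S6 kinase, did not pass either (-0.80 ± 0.293, adjusted p = 0.0595).

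The 5 paralogs in the table, Rpl22l1, Rps27l, Rpl36al, Rpl7l1 and Rps4l, had adjusted p-values from 0.0867 to 0.892 in this comparison. Of their parent genes, Rps4x, Rpl36a and Rpl7 fell and Rpl22 rose, with Rpl7 called in only 3 of 14 alternatives. Rps27, the parent of Rps27l, was not among the genes counted. Rpl36a fell (log2 fold change -0.93, adjusted p = 0.00689), and its paralog Rpl36al was at -0.04 ± 0.192 (adjusted p = 0.892). The difference between parents and paralogs was not tested, and reads of near-identical copies cannot be assigned with certainty when only reads with a unique position are kept.

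Genes that are not ribosomal proteins by the naming rule were set beside them. Of the 20 tested genes for translation factors and other proteins with TOP mRNAs, 8 fell and 0 rose (median log2 fold change -0.61), among them the poly(A)-binding protein Pabpc1 (-1.14 ± 0.19, adjusted p = 0.000452) and the nucleolar chaperone Npm1 (-1.79 ± 0.21, adjusted p = 3.29e-05). Of 66 tested mitochondrial ribosomal protein genes 2 rose and 1 fell (median -0.02). Fau, a fusion of a ubiquitin-like domain with a ribosomal protein, fell (-1.03 ± 0.24, adjusted p = 0.00497), and Rpsa (-0.44 ± 0.19, adjusted p = 0.0916) and Gnb2l1, the older symbol of Rack1 (adjusted p = 0.998), did not pass.

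**Figure D2:**
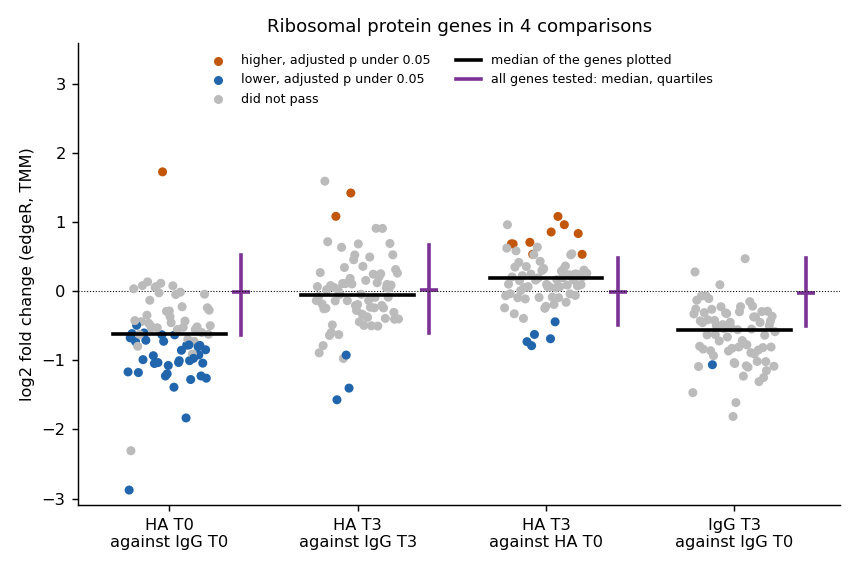
Log2 fold change (edgeR, TMM scaling) of each tested cytosolic ribosomal protein gene in 4 comparisons of 2 groups, coloured by whether it passed an adjusted p of 0.05. Black lines are medians of these genes and purple bars the quartiles and median of all genes tested. Most ribosomal genes lie below 0 in HA T0 against IgG T0, at a median of -0.62. In HA T3 against HA T0 they lie on both sides of 0, at a median of 0.20 with 21 genes below 0.

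After intestinal manipulation, most ribosomal protein genes in the HA pull-down did not pass the test. Of 76 tested, 9 rose and 5 fell between HA T0 and HA T3, or 11.8% and 6.58%, while 18.7% of all 9441 genes tested rose and 15.1% fell. Their log2 fold changes had a median of 0.20 and an SD of 0.38, and those of all genes an SD of 0.99. Scaling mattered here. With total counts in place of TMM the median was -0.29 for all genes and -0.07 for the ribosomal protein genes, with 5 higher and 11 lower, so the distance between both medians was 0.21 with TMM and 0.22 with total counts. The count of genes that rose was 17 without HA T0 replicate 1 and 6 without HA T3 replicate 4, and the count of genes that fell was 2 without HA T0 replicate 1, 3 without HA T0 replicate 2 and 0 without HA T3 replicate 1 or 4. Markers of several cells moved between these groups. The summed glial markers went from 5067 to 6385 CPM in HA T0 to 10930 to 11411 CPM in HA T3, but only 4 of 14 rose (Gfap, Cryab, Sox2 and S100b), 1 fell (Gpr37l1) and 9 had a fold change above 0. Interstitial cell markers summed to 1521 to 2108 CPM in HA T3, with 2 of 4 lower. Smooth muscle markers were at 18484 to 22056 CPM in HA T3, with 5 of 14 lower, while 6 of 8 fibroblast and 6 of 7 mesothelial markers fell and 6 of 13 neuronal markers rose. Their part in the result was not tested.

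The genes that rose came from both subunits and included 3 of the 5 paralogs. Rpl18 (chromosome 7, 45715457 to 45720836, plus strand, GRCm38), a large subunit protein, was at 996, 831 and 743 CPM in HA T0 and at 1444, 1148 and 1311 CPM in HA T3. The groups did not overlap (log2 fold change 0.86 ± 0.179, adjusted p = 0.000995). Rpl24, which forms a bridge to the small subunit, was at 633, 496 and 446 CPM in HA T0 and at 884, 660.0 and 811 CPM in HA T3, again without overlap (0.84 ± 0.187, adjusted p = 0.00181). Rps24, the gene with the smallest p-value between HA and IgG, rose with time from 644, 853 and 608 CPM to 1051, 903 and 874 CPM (0.69 ± 0.179, adjusted p = 0.00562). All 3 calls were kept in all 14 alternatives, total counts as scaling among them.

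Rpl7l1, a Rpl7 relative found on ribosome precursors, was at 36.9, 41.3 and 48.4 CPM in HA T0 and at 65.5, 62.2 and 77.9 CPM in HA T3 (log2 fold change 0.96 ± 0.203, adjusted p = 0.00106). Rpl36al, a near copy of Rpl36a, was at 191, 171 and 229 CPM in HA T0 and at 312, 235 and 258 CPM in HA T3 (0.71 ± 0.178, adjusted p = 0.00428). In both genes all HA T3 libraries were above all HA T0 libraries. The call of Rpl7l1 was kept in all 14 alternatives and that of Rpl36al was lost with total counts as scaling (adjusted p = 0.0563). The third, Rps4l, is annotated as a transcribed pseudogene and overlapped between the groups at 35.7, 22.4 and 33.8 CPM in HA T0 and 56.5, 32.8 and 75.5 CPM in HA T3 (1.08 ± 0.281, adjusted p = 0.00652), a call lost without HA T3 replicate 4 (adjusted p = 0.068). Rpl8 (log2 fold change 0.54, adjusted p = 0.0212), Rps27a (0.54, adjusted p = 0.0342) and Rpl7a (0.69, adjusted p = 0.0357) also rose, with overlap between the groups. They were called in 8, 7 and 9 of 14 alternatives, and all 3 calls were lost with total counts as scaling and in the fit of all 12 libraries. The parent genes Rpl7 (-0.25, adjusted p = 0.269), Rpl36a (0.29, adjusted p = 0.173) and Rps4x (0.36, adjusted p = 0.114) did not pass.

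Of the genes that fell, Rps27l had the smallest p-value. Rps27l, a paralog of the small subunit protein Rps27 that is known as a p53 target, was at 283, 244 and 326 CPM in HA T0 and at 124, 181 and 135 CPM in HA T3. Every HA T3 library was below every HA T0 library (log2 fold change -0.69 ± 0.189, adjusted p = 0.00833). Its call was lost without HA T3 replicate 1 (adjusted p = 0.0555) or 4 (adjusted p = 0.0588). Rpl29, at 671, 690 and 768 CPM in HA T0 and at 268, 467 and 408 CPM in HA T3 (-0.62 ± 0.193, adjusted p = 0.0169), lost its call without HA T3 replicate 1 (adjusted p = 0.126) or 4 (adjusted p = 0.0512). Rpl23a, at 1078, 1134 and 1054 CPM against 348, 793 and 495 CPM (-0.73 ± 0.243, adjusted p = 0.0328), lost it without any 1 library except HA T3 replicate 3. The low-count gene Rpl15 (-0.79 ± 0.269, adjusted p = 0.0291) and Rps2 (-0.44 ± 0.164, adjusted p = 0.0434) were called in 8 and 5 of 14 alternatives.

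**Figure D3:**
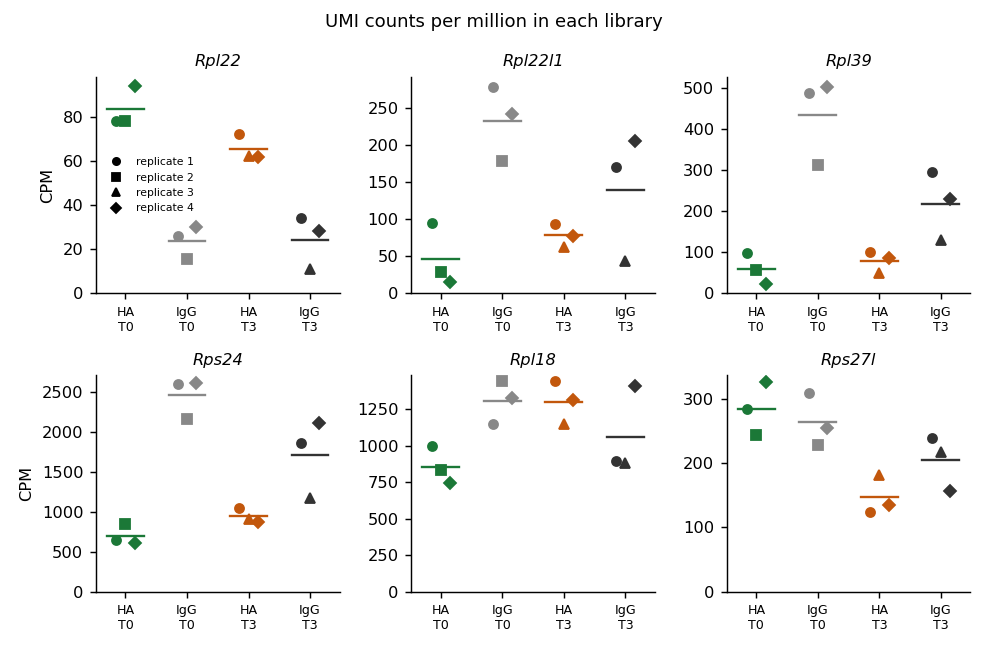
CPM (vertical axes, each from 0) of 6 ribosomal protein genes in the 12 libraries, with symbols for the replicate number and lines for the group means. Rpl22 is high in both HA groups, Rpl22l1, Rpl39 and Rps24 are low in HA T0 against IgG T0, and Rpl18 is higher and Rps27l lower in HA T3 than in HA T0.

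The 5′ ends of the genes that rose or fell at 3 h are shown because the TOP motif sits at the first base of the transcript. RefSeq starts on GRCm38.p6 were found for 59 of the 79 genes. A run, set as a C followed by at least 4 more C or T on the gene's strand and starting at most 10 bases from the annotated start, was present in 35 of them (59.3%), against 34.4% of all 27025 genes in the table of starts. A run of at least 8 was present in 39.0% of the ribosomal protein genes and in 9.43% of all genes. Of the genes called at 3 h, 6 that rose and 3 that fell had a start in the table, and 3 and 3 of them held a run. The windows below run from 10 bases before to 20 bases from the start on, 5′ to 3′, with the longest such run in capitals. Rps24 and Rps27l each had 2 starts, both shown, and a gene was counted where any of its starts held a run. The first Rps27l window holds a second, shorter run, 1 base after its start, in lower case. A window without capitals says only that no such run lies close to this annotated start.
Rpl18, rose, chr7:45718061-45718090, plus strand: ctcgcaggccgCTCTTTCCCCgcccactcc
Rps24, rose, chr14:24490668-24490697, plus strand: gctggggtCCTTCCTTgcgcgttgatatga
Rps24, second start, chr14:24490743-24490772, plus strand: cgccgtagccatcatggtgagtctcctcgg
Rpl7a, rose, chr2:26910797-26910826, plus strand: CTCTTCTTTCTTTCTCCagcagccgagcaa
Rpl24, rose, chr16:55966265-55966294, plus strand: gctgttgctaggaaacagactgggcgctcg
Rpl36al, rose, chr12:69184048-69184077, minus strand: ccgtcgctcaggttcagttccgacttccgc
Rpl7l1, rose, chr17:46782637-46782666, minus strand: gctgcgcaagcgcagtagctgaagcaccgg
Rpl15, fell, chr14:18270967-18270996, minus strand: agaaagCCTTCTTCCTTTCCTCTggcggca
Rps2, fell, chr17:24720053-24720082, plus strand: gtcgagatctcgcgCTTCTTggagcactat
Rps27l, fell, chr9:66946076-66946105, plus strand: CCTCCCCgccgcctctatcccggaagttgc
Rps27l, second start, chr9:66946403-66946432, plus strand: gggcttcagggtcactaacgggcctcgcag

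Many genes that assemble ribosomes and start translation passed the test at 3 h in the HA pull-down, where, as given above, 18.7% of all genes tested rose and 15.1% fell. Of 51 tested genes of ribosome biogenesis, the nucleolar proteins and assembly factors that make ribosomes, 30 rose and 0 fell between HA T0 and HA T3, with a median log2 fold change of 0.92. Nop58, of the box C/D particles that modify ribosomal RNA, rose by 2.31 ± 0.24 (adjusted p = 2.52e-07), and the nucleolar GTPase Gnl3 by 2.02 ± 0.22 (adjusted p = 4.96e-07). Of 23 tested translation initiation and termination factors without a known TOP mRNA 15 rose and 0 fell (median 0.86), with Eif6, which keeps the subunits apart, at 1.61 ± 0.18 (adjusted p = 1.02e-06). Of the 20 genes with TOP mRNAs 4 rose and 0 fell (median 0.26), these being Ipo5, Npm1, Eef2 and Eif4b, a share close to that of all genes. Of 65 tested mitochondrial ribosomal protein genes 16 fell, 1 rose and 48 did not pass, with a median of -0.22. Among those that fell was Mrpl34 (log2 fold change -1.16 ± 0.18, adjusted p = 4.65e-05). In IgG T3 against IgG T0, 2 of 28 tested biogenesis genes rose, Gnl3 and Wdr43, and 0 fell (median 0.36). There 4.43% of all genes rose and 1.03% fell, and 3 of 53 mitochondrial ribosomal protein genes fell, Mrpl34 among them (median -0.54). The HA change minus the IgG change passed for 0 of 54 biogenesis, 1 of 23 non-TOP factor and 0 of 67 mitochondrial genes. Among all genes 0.301% were higher and 0.0291% lower in that test. A test of the difference between these lists was not run. Of 25 tested genes of mTOR signalling and TOP control 6 rose and 5 fell, again close to the shares of all genes. By smallest p-value those that rose were led by Myc, Ddit4, Larp1 and Mknk2, and those that fell by Rheb, Eif4ebp1, Tsc1 and Mycl. Larp1 was at 1.04 ± 0.23 (adjusted p = 0.00169).

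**Figure D4:**
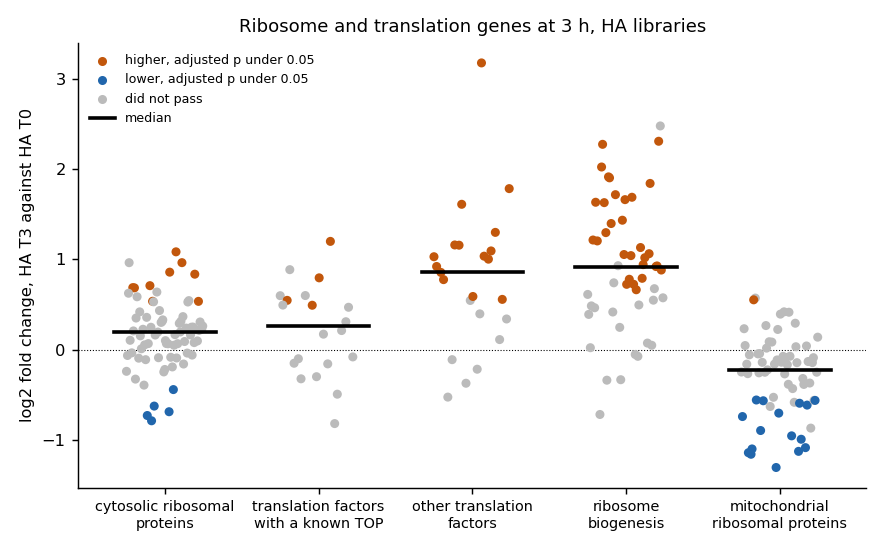
Log2 fold change of HA T3 against HA T0 for the tested genes of 5 lists, one point per gene, coloured by whether it passed an adjusted p of 0.05, with the median of each list as a black line. The cytosolic ribosomal protein genes lie on both sides of 0 with a median of 0.20. The median of the ribosome biogenesis genes is 0.92 and that of the mitochondrial ribosomal protein genes -0.22.

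Several ribosomal protein genes serve as references in quantitative PCR, and Rpl32 was used as one in the study, for isolated muscularis ganglia and for cultured monocytes. Rpl32 was at 986, 927 and 913 CPM in HA T0 and at 736, 994 and 1021 CPM in HA T3. The groups overlapped (log2 fold change 0.23 ± 0.176, adjusted p = 0.338). The 8 ribosomal reference genes examined had adjusted p-values from 0.0809 (Rpl19) to 0.889 (Rps29) between HA T0 and HA T3, with a median log2 fold change of 0.13. Between HA T0 and IgG T0 4 of the 8 fell, Rpl13a, Rplp0, Rpl32 and Rps29, with Rpl32 at -0.71 ± 0.243 (adjusted p = 0.0394). The call of Rpl13a was kept in all 14 alternatives, and those of Rpl32, Rplp0 and Rps29 in 6, 6 and 5. Ywhaz, a reference gene outside the ribosome, rose at 3 h (0.75 ± 0.21, adjusted p = 0.00996).

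At 3 h the comparison of HA with IgG depended on which IgG T3 libraries were used. With all 3, 2 of 76 tested ribosomal protein genes were higher in HA, Rpl11 and Rpl22, and 3 were lower, Rpl39, Rpl5 and Rpl29, while 11.8% of all 7200 genes tested were higher and 10.2% lower. The median log2 fold change was -0.06. With the mouse as a replicate block 4 were higher and 4 lower, where 877 of all 7200 genes were higher and 731 lower. The block could not be used without the shallow libraries, which leaves 1 mouse with both antibodies. Without IgG T3 replicate 4, 11 were higher and 0 lower with a median of 0.39. In that fit 633 of all 9050 genes were higher and 325 lower. Without the shallow replicates 1 and 3 the median was -0.44, against 0.09 over all genes tested. The last medians set 3 HA libraries against a single IgG library. Several genes were near 0 in the shallow libraries: Rps16 was at 11.3, 10.9 and 1211 CPM in IgG T3 replicates 1, 3 and 4, and Rpl7a at 11.3, 54.3 and 744 CPM. In replicate 1 a value of 11.3 CPM is 1 UMI. The direction of the group as a whole at T3 was therefore not settled by these libraries.

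Rpl11 was called throughout. It was at 759, 1054 and 972 CPM in HA T3 and at 408, 489 and 495 CPM in IgG T3, without overlap (log2 fold change 1.09 ± 0.267, adjusted p = 0.00665), and passed in all 15 alternatives. Rpl39 was at 99.9, 50.8 and 85.6 CPM in HA T3 and at 295, 130.4 and 229 CPM in IgG T3, again without overlap (-1.40 ± 0.335, adjusted p = 0.00546). Its call was lost without IgG T3 replicate 4 (adjusted p = 0.0687) or with all 12 libraries fitted together, but kept without both shallow libraries (-1.42, adjusted p = 0.0035). The values of Rpl5 rest on only 6, 1 and 20 UMIs in IgG T3 and 28, 23 and 25 in HA T3. Rpl5 (-1.57 ± 0.482, adjusted p = 0.0248) and Rpl29 (-0.92 ± 0.309, adjusted p = 0.0385) overlapped between the groups. Without IgG T3 replicate 4 they had adjusted p-values of 0.565 and 0.388, and without both shallow libraries log2 fold changes of -1.94 (adjusted p = 0.00364) and -1.30 (adjusted p = 0.000477). They were called in 9 and 7 of 15 alternatives.

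In the IgG libraries alone most ribosomal protein genes had values below 0 at 3 h and 1 passed the test. Of 75 tested, Rpl11 fell (log2 fold change -1.06 ± 0.273, adjusted p = 0.0368) and 0 rose, while 4.43% of all 5219 genes tested rose and 1.03% fell. Rpl11 was at 951, 958 and 972 CPM in IgG T0, above all 3 IgG T3 libraries, and its call was lost without any 1 IgG T0 library (adjusted p 0.0993 to 0.122), without IgG T3 replicate 1 (0.0851) or 3 (0.0755) and without both (0.173). At an unadjusted p under 0.05, 22 genes were lower and 0 higher. The share of all genes at that threshold was not computed, so whether these counts exceed it cannot be said. DESeq2 called 3, all lower, where 51 of all 12885 genes were lower and 264 higher. The median was -0.56, with 72 of 75 below 0. Without IgG T3 replicate 4 it was -0.92 with 11 genes called lower, where 37 of all 6355 genes tested were lower and 144 higher. It was -0.45 without replicate 1 and -0.51 without replicate 3. Without both it was -0.13, with 53 of 77 below 0 and 0 called, in a fit with a single IgG T3 library.

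The change with time in HA was also set against the change in IgG in 1 fit of all 12 libraries. Of 77 tested ribosomal protein genes 0 passed in either direction, where 0.301% of all 10314 genes were higher and 0.0291% lower. At an unadjusted p under 0.05, 34 were higher and 0 lower. The share of all genes at that threshold was not computed, so whether these counts exceed it cannot be said. DESeq2 called 3, all higher, where 54 of all 12973 genes were higher and 33 lower. The fit with the mouse as a replicate block called 15, all higher, with Rpl24, Rpl18, Rps24, Rpl11 and Rps27a among them. In that fit 133 of all 10314 genes were higher and 25 lower. In the main test the median of the difference was 0.88, or 0.71 above that of all genes tested. It was 0.32, or 0.17 above that of all genes, without the shallow IgG T3 replicates 1 and 3, again with a single IgG T3 library. Without IgG T3 replicate 4, 20 ribosomal protein genes were called, all higher, where 68 of all 10769 genes were higher and 27 lower. The comparisons of HA T3 with HA T0, of HA with IgG at each time and of IgG with time share their libraries, so their values for 1 gene are not independent.

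**Figure D5:**
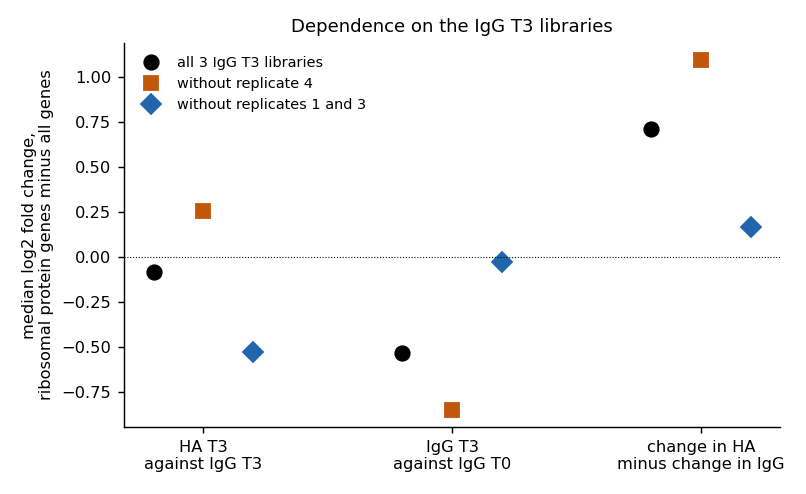
Median log2 fold change of the ribosomal protein genes minus that of all genes tested (vertical axis) in the 3 comparisons that use IgG T3, with all 3 IgG T3 libraries, without replicate 4 and without the shallow replicates 1 and 3. In HA T3 against IgG T3 the value is -0.08, 0.25 and -0.53 in that order.

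Of the 79 genes, Rpl21 and Rps15a failed the filter on low counts in every comparison of 2 groups, and Rpl34 in all but HA T0 against IgG T0. The tagged gene Rpl22 failed it only in IgG T3 against IgG T0 and was not tested there. Rpl21 was at 4.61, 2.24 and 3.48 CPM in HA T0, Rps15a at 2.30, 0.559 and 1.74 CPM and Rpl34 at 9.98, 2.79 and 3.83 CPM. The annotation (GENCODE M21) names 15, 8 and 2 pseudogenes after them, and of the 50-base words in the last 300 bases of their transcripts 100% in Rpl21, 77.3% in Rps15a and 54.2% in Rpl34 also occurred in annotated transcripts of genes elsewhere in the genome. Such sharing was not particular to these genes. It was also 100% in Rps12 and Rpl10, at means of 1643 and 579 CPM in HA T0. Among the genes that rose at 3 h it was 81.7% in Rpl18 and 81.3% in Rpl24, and 0% in Rps24 and Rpl7l1. Whether sharing set the low counts of Rpl21, Rps15a and Rpl34 was not tested. Levels of single genes in this family were compared between libraries and not with each other.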

How the data were processed

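Small intestinal muscularis of 6 mice was measured in 12 libraries by a bulk version of MARS-seq. Per the labels and the submitters' processing notes, reads were trimmed with cutadapt, mapped with STAR 2.4.2a to mm10 (annotation given as Gencode version 10) and counted with HTSeq from 1000 bases upstream to 100 bases downstream of 3′ ends, keeping reads with a unique position. DESeq2 1.26.0 was named for normalisation. The deposited values are raw counts of UMIs for each gene, all whole. Use of strand and the pool of each sample are not given in the sources used here, so overlapping and antisense genes and near-identical copies are uncertain. Per the labels genes needed 5 reads in 1 sample, but 189 of 12975 genes had no count of 5.

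Library totals were 88136 to 2870591 counts, and a count of 0 allows 3 counts, or 1.05 to 34.0 CPM (counting error only). The main test was edgeR 4.0.16 in R 4.3.3: quasi-likelihood F-test, robust, TMM scaling, filterByExpr, fitted on all genes of the libraries compared and adjusted by Benjamini-Hochberg over them (threshold 0.05). The difference of time effects used all 12 libraries. SE was derived from the F statistic. The code was tested on simulated data. Alternatives were RLE or total counts as scaling, TMM factors without the ribosomal genes, no filter, at least 5 counts in 1 library, a fit of all 12 libraries, DESeq2 1.42.0, the replicate block, each library left out in turn and, added after seeing the data, both shallow IgG T3 libraries left out. HA and IgG libraries with the same number come from 1 split homogenate. Their deviations from the group means correlated at 0.268, 0.269 and 0.273 at T0 and 0.162, 0.153 and 0.0887 at T3 across genes. T0 and T3 numbers name different mice. Separate mice are implied by the numbers, and p-values measure the spread between these samples.

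Members and lists were chosen with earlier results of these data known. Named genes were the 5 with the smallest p in each direction of a comparison among those called, Rpl22, the paralogs and their parents, stalk genes, reference genes, Rps6, Rps27a, Rpl5, Rpl11 and the genes that failed the filter. A few genes that meet it are left out of the text. Rps16 was named after its values were seen, and Rpl8 and Rpl7a to complete the genes that rose at 3 h. Promoter windows are from RefSeq and gene positions from GENCODE M21. Protein sequences were not used here.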

Additional observations from a re-analysis of the deposited data

How the results depend on the processing

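In HA T0 against IgG T0 the number of ribosomal protein genes that fell was 21 to 37 with 1 library left out and 44 with the replicate block, 36 of whose 45 called genes were also called without it. In HA T3 against IgG T3 the number higher was 6 without a filter, 5 with at least 5 counts in 1 library and 7 in the fit of all 12 libraries. It was 4 with the replicate block and 1 to 11 with 1 library left out. The number lower was 1 in the fit of all 12 libraries, 1 with DESeq2, 25 without both shallow libraries, which leaves 1 IgG T3 library, and 0 to 5 with 1 library left out. The median was -0.14 to 0.39 with 1 library left out, the last without IgG T3 replicate 4. It was -0.44 without both shallow libraries, an alternative chosen after seeing the data, which leaves 1 IgG T3 library.

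In HA T3 against HA T0 total counts as scaling gave 5 higher and 11 lower with a median of -0.069, the fit of all 12 libraries gave 1 lower, and with 1 library left out 6 to 17 were higher and 0 to 4 lower with a median of 0.078 to 0.26. In IgG T3 against IgG T0 the number lower was 2 with total counts, 13 without a filter, 2 with at least 5 counts in 1 library, 10 in the fit of all 12 libraries, 9 with the replicate block, 3 with DESeq2, 0 without both shallow libraries and 0 to 11 with 1 library left out. The block of time points by number joins different mice. The difference of time effects gave 15 higher with the replicate block, 3 with DESeq2 and 0 to 20 with 1 library left out, and a median of 0.32 without both shallow libraries. The cause of these changes was not tested. A total without mitochondrially encoded genes gave no separate value, as the table holds 0 of them. Depth limits the IgG T3 group most: 1 to 3 UMIs are 11.3 to 34.0 CPM in its shallowest library.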
